A study of Mus musculus with 2 samples.

Results

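The genes described here encode proteins that move ions, lipids and other small substrates across membranes, namely ion channels, P-type ion pumps, phospholipid flippases and ABC transporters, as recovered with FMRP from mouse testis. They were chosen by gene symbol, with 1 pattern that takes the potassium, calcium, sodium, chloride, TRP, polycystin and mechanosensitive channels, the P-type ATPases and the ABC genes. Of the 4788 protein-coding genes in the deposited table, 114 matched. FMRP, the RNA-binding protein lost in fragile X syndrome, was precipitated from testis lysate of wild-type adult male mice. The comparison is between 1 library of the RNA that came down with the anti-FMRP antibody (FMRP RIP) and 1 library of lysate RNA set aside before precipitation (input). No IgG library was used here, and how many animals gave the lysate is not given in the sources used here. The table holds the genes with a higher FMRP RIP level by the authors' own comparison, so each of the 114 was higher there by selection. That direction is not a finding. Genes outside the table, here called not listed, have no value here, and a gene that is not listed may be unexpressed in testis, unchanged or lower.

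Ion channels are pores that let sodium, potassium, calcium or chloride run down their gradients, while P-type pumps spend ATP to build those gradients. Flippases of the P4 class are P-type ATPases that turn phospholipids from the outer to the cytoplasmic leaflet of a membrane, and ABC transporters use ATP to carry lipids, sterols, drugs or peptides. Sperm depend on such proteins for membrane potential, calcium entry, flagellar beating and the acrosome reaction, and many of their mRNAs are made in spermatids well before the protein is needed.

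Levels are reads per gene normalised by the size of the library (CPM), with all reads of the library as the base. They are not divided by transcript length, so each gene was compared with itself across the 2 libraries. The step between values put the totals at 30849871 input reads and 36506932 FMRP RIP reads, and 1 read was worth 0.0324 and 0.0274 CPM. Listed genes of all kinds took 14.2% of all reads in input RNA and 55.2% of those in the FMRP RIP. With 1 library per group there is no replicate error and no test. Ratios of the CPM values are given with exact Clopper-Pearson 95% intervals computed on rounded reads, which cover counting error only. A range after a ratio is its interval, and where 2 CPM values stand together the input comes first. The log2 ratio was taken after adding 1 CPM to both values, which lowers the log2 ratio of genes with few reads. None of the 114 genes lay at or under the floor of 3 input reads (0.0972 CPM), but 20 had fewer than 30 input reads. In whole tissue, fewer cells of a type and less RNA per cell cannot be told apart. Among germ cell markers, 2 of 10 for spermatogonia, 3 of 10 for spermatocytes and 1 of 14 for spermatids were listed. The share over all annotated protein-coding genes was 21.3%, and most germ cell markers were not listed. None of 10 Sertoli, 8 Leydig or 10 myoid, endothelial, macrophage and blood markers was listed, which gives those genes no level in either library.

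The reference annotation holds 310 protein-coding genes that match the pattern, of which 114 (36.8%) were listed. Over all 21896 annotated protein-coding genes the share was 21.3%, and without olfactory, vomeronasal and trace amine receptors and predicted genes it was 24.1%. Channel, pump and ABC genes have long spans from start to end, with a median of 58.0 kb against 17.1 kb for all annotated genes, and up to 300 kb longer genes of all kinds were listed more often. Under 10 kb, 12% of the channel, pump and ABC genes (3 of 25) and 4.91% of all genes were listed, and from 10 to 30 kb, 20% and 18.1%. Among genes of 100 to 300 kb, 57.1% of the channel, pump and ABC genes and 51.0% of all genes were listed. Among those of 30 to 100 kb, the shares were 41.6% and 37.7%, and above 300 kb they were 38.2% and 43.3%. From 10 kb upwards, the share of channel, pump and ABC genes thus lay near that of all genes of like span. Transcript lengths were not analysed here.

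The families differed widely in how many of their genes were listed. All 14 P4 flippases were listed, against 22 of 94 potassium channel genes and 12 of 46 ABC transporters of subfamilies A to D and G. Calcium release and store-operated entry (7 of 11), sodium channels (9 of 15), P5 ATPases (3 of 5), ABC proteins E and F (3 of 4) and polycystins (4 of 7) also had most of their genes in the table. Lower shares were found for genes with a TRP symbol (6 of 23), chloride and anion channels (7 of 24) and cyclic nucleotide-gated and two-pore channels (4 of 12). The 23 include *Trpc4ap* and *Trpc5os*, which match the pattern but are not channel subunits. The median span of the annotated genes was 153 kb for P4 flippases and 110 kb for sodium channels, against 32.7 kb for potassium channels. The potassium share of 23.4% lay near the 21.3% of all annotated protein-coding genes. Shares did not follow span throughout, as ABC transporters A to D and G had a longer median (67.8 kb) than polycystins (58.5 kb). The part of span in the shares of families, or of classes within them, was not tested.

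**Figure D1:**
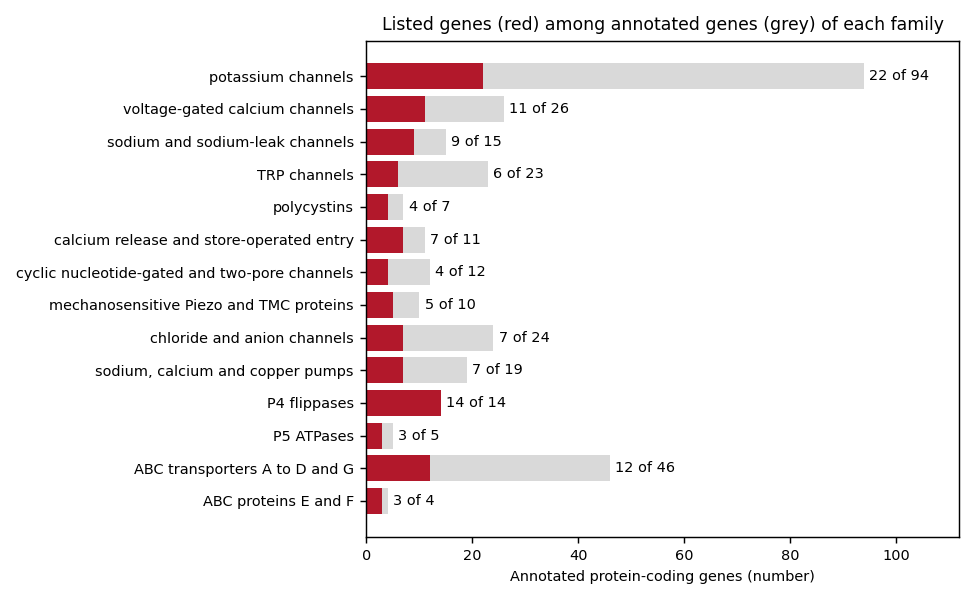
Number of annotated protein-coding genes of each family (grey bars) and of those listed as higher in the FMRP RIP (red), with both numbers at the end of each bar. The P4 flippase bar is red over its whole length (14 of 14), whereas potassium channels, the largest family, have 22 of 94 genes in red.

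Among the listed genes, the 114 genes had somewhat lower log2 ratios than the table as a whole. The difference of the medians was -0.149 with 1 CPM added and only -0.0641 with none. A log2 ratio above 1 was found in 72 of the 114 genes (63.2%), against 70.1% of all listed genes. A log2 ratio above 2 was found in 12 (10.5%), against 25% of all listed genes, and above 3 in 2, against 317 of all 4788 listed genes. Without the added 1 CPM, a plain CPM ratio of 4 or more was found in 28 of the 114 genes (24.6%), against 34.4% of all listed genes, where a gene at 0 in the input was counted as reaching it. At least 1.5-fold with the added 1 CPM was reached by 108, with a share of 97.3% over all listed genes. Adding 5 CPM in place of 1 left 47 genes with a log2 ratio above 1, and scaling both libraries to the reads of genes not listed put all 114 above it. The median log2 ratio was 1.20 (0.746 with 5 CPM added and 2.03 after that scaling), with quartiles of 0.85 and 1.65 and a range of 0.46 to 4.10, and the median of all listed genes was 1.35. Near the limit of 1 lay *Cacna1s* (1.01) just above and *Atp8b5* (0.99) just under it. Near 1.5-fold, *Pkd1l2* (log2 ratio 0.59) lay just above and *Scn10a* (0.56) just under it.

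The log2 ratio differed with the level in the input, and the order of the levels depended on the added 1 CPM. The 114 genes had a median of 4.76 CPM in input RNA and 12.7 CPM in the FMRP RIP, against 9.27 and 30.6 CPM for all listed genes. Under 1 CPM in the input, the median log2 ratio was 0.98 for 22 channel, pump and ABC genes and 1.0 for all 548 listed genes of that level. Between 1 and 10 CPM the medians were 1.04 (50 genes) and 1.29 (1923 genes), and between 10 and 100 CPM they were 1.43 (39 genes) and 1.54 (2015 genes). Only 3 of the 114 genes had 100 CPM or more in the input, namely *Atp8b3*, *Atp1a4* and *Abcf2*. Their median was 2.71, beside 1.56 for the 302 listed genes of that level. Without the added 1 CPM, the medians of the 114 genes were 2.01, 1.30, 1.45 and 2.71 from the lowest level to the highest, and those of all listed genes were 2.04, 1.54, 1.58 and 1.57. The genes under 1 CPM then lay above both middle levels.

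**Figure D2:**
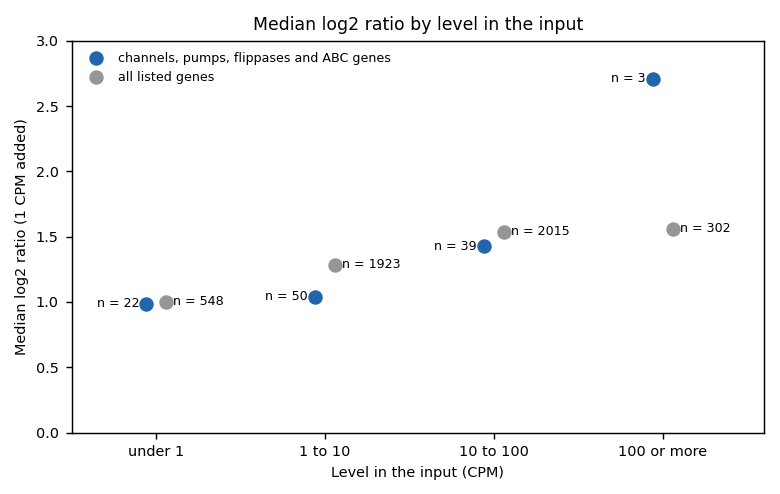
Median log2 ratio of FMRP RIP over input (vertical axis, 1 CPM added to both) for genes grouped by their CPM in the input (horizontal axis), for the channel, pump, flippase and ABC genes (blue) and all listed genes (grey), with the number of genes beside each point. Blue lies a little under grey up to 100 CPM and well above it at 100 CPM or more, where it rests on 3 genes.

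Summed over the 114 genes, the CPM was 3175 in input RNA and 16464.5 in the FMRP RIP, a ratio of 5.19 beside 3.89 for the sum over all listed genes. A single gene weighed heavily on this sum. *Atp8b3* held 37.2% of the summed input CPM and 47.7% of the summed FMRP RIP CPM, and without it the ratio was 4.32. In reads, *Atp8b3* ranked 1 among all 4788 listed genes in the FMRP RIP and 4 in the input. At the other end, 51 of the 114 genes stayed under 10 CPM in the FMRP RIP.

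**Figure D3:**
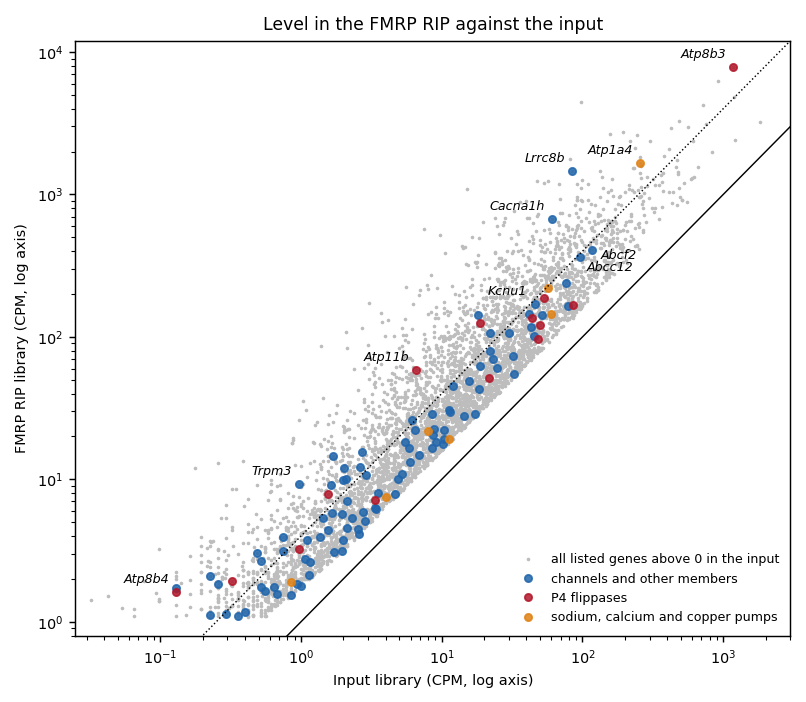
CPM in the FMRP RIP (vertical log axis) against CPM in the input (horizontal log axis) for listed genes above 0 in the input (grey), P4 flippases (red), sodium, calcium and copper pumps (orange) and the remaining channel, P5 and ABC genes (blue); the solid line marks equal values and the dotted line a ratio of 4. *Atp8b3* lies at the top right, and *Lrrc8b* and *Cacna1h* lie far above the dotted line.

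Of the 14 families, the P4 flippases were the only one with every annotated gene in the table. Their median log2 ratio was 1.24 (range 0.90 to 2.97), and 11 of 14 had a log2 ratio above 1. *Atp8b3*, a flippase known from the acrosome region of mouse sperm, measured 1182 CPM in input RNA and 7861 CPM in the FMRP RIP. This is a ratio of 6.65 (95% interval 6.58 to 6.72) and a log2 ratio of 2.73. Its gene, ENSMUSG00000003341, lies on the minus strand of chromosome 10 from 80519584 to 80539124 in GRCm38. *Atp11b*, a flippase of endosomes and the trans-Golgi, had far fewer reads but the highest log2 ratio of the family, with 6.61 CPM in the input, 58.8 CPM in the FMRP RIP and a ratio of 8.89 (7.70 to 10.3). Next to *Atp8b3* in ratio was *Atp10a*, a plasma membrane flippase for phosphatidylcholine, with 18.6 and 124.6 CPM and a ratio of 6.70 (6.14 to 7.32). The intervals of *Atp8b3* and *Atp10a* overlapped, and that of *Atp11b* lay above both.

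The other flippases had lower log2 ratios. *Atp11a*, a flippase of the plasma membrane, had 52.9 CPM in input RNA and 188 CPM in the FMRP RIP (ratio 3.56, 3.37 to 3.76). *Atp8a2* measured 44.1 and 136 CPM (ratio 3.08), and its paralog *Atp8a1* 3.37 and 7.15 CPM (ratio 2.12, 1.68 to 2.69). Both turn phosphatidylserine. *Atp9a* and *Atp9b*, which work without the usual partner subunit, had ratios of 2.43 and 1.97. In *Atp8b5*, which is related to *Atp8b3* and also known from sperm, the level was 48.4 CPM in input RNA and 97.0 CPM in the FMRP RIP, with a ratio of 2.0 (1.89 to 2.13) that lay wholly under the interval of *Atp8b3*. *Atp8b2* had a ratio of 2.40. *Atp8b1* (0.972 CPM in the input, ratio 3.35), *Atp10b* (0.324 CPM, ratio 6.0) and *Atp8b4* (0.130 CPM, ratio 12.5) were under 1 CPM before precipitation. For *Atp8b4*, with 4 reads in input RNA and 59 in the FMRP RIP, the interval of the ratio ran from 4.62 to 47.3, so that its place in the family cannot be given. Most P4 flippases need a CDC50 subunit to leave the endoplasmic reticulum. Of its genes, *Tmem30a* was listed, with 21.8 CPM in input RNA and 56.0 CPM in the FMRP RIP (ratio 2.56, 2.35 to 2.80), and *Tmem30b* and *Tmem30c* were not.

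**Figure D4:**
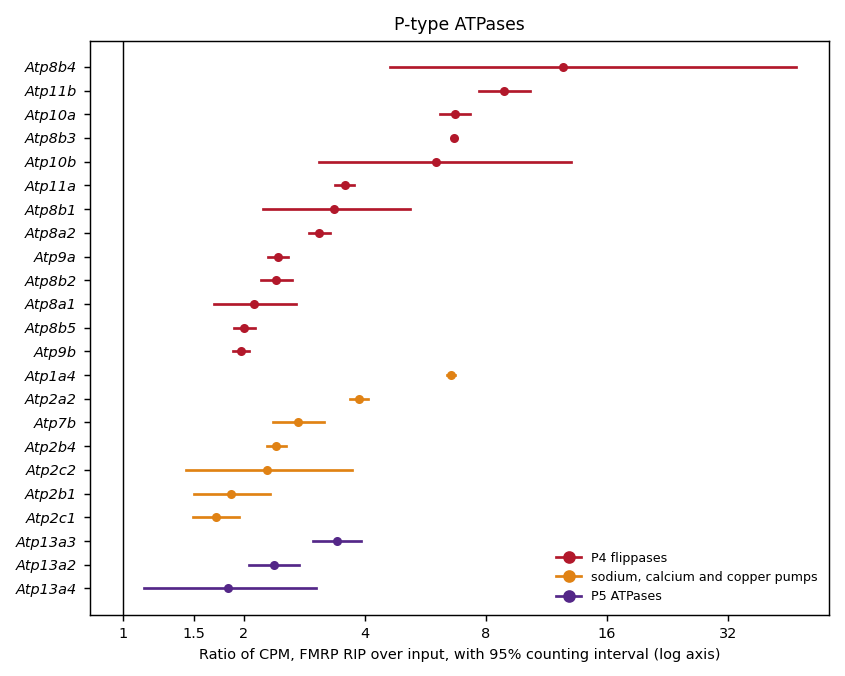
Ratio of CPM in the FMRP RIP over the input (horizontal log axis) for 23 of the listed P-type ATPases, with bars for the 95% counting interval from the reads, coloured by class. *Atp8b3* and *Atp1a4* have intervals about as narrow as their points, whereas the interval of *Atp8b4* runs from 4.62 to 47.3.

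The ion pumps were led by the sodium pump of sperm. *Atp1a4*, the alpha subunit of the Na/K-ATPase that is made in testis, had 255 CPM in input RNA and 1673 CPM in the FMRP RIP, with a ratio of 6.55 (6.40 to 6.71) and a log2 ratio of 2.71. It was the only one of 4 alpha subunit genes that was listed, and none of the 4 beta subunit genes was. Its values were not whole reads in both libraries, and how reads that fit several similar genes were counted is not given in the sources used here. Among calcium pumps, *Atp2a2* (SERCA2), which fills the endoplasmic reticulum, had 56.9 and 219.7 CPM, a ratio of 3.86 (3.66 to 4.07). Plasma membrane calcium ATPases push calcium out of the cell. *Atp2b4*, the main one of sperm, had 59.9 CPM in the input, 144 CPM in the FMRP RIP and a ratio of 2.40 (2.28 to 2.54), and *Atp2b1* had 4.02 CPM, 7.48 CPM and a ratio of 1.86 (1.5 to 2.32). These intervals overlapped, and *Atp2b1* had only 124 input reads. The Golgi calcium and manganese pumps *Atp2c1* and *Atp2c2* had ratios of 1.70 (1.5 to 1.95) and 2.28 (1.43 to 3.72), with log2 ratios of 0.72 and 0.66. The copper exporter *Atp7b* had a ratio of 2.72 (2.36 to 3.16), and its relative *Atp7a* was not listed. Over the 7 pumps the median log2 ratio was 1.25. It was 0.738 over those with whole reads in both libraries, namely *Atp7b*, *Atp2b1*, *Atp2c1* and *Atp2c2*, which leaves out *Atp1a4*, *Atp2a2* and *Atp2b4*.

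P5 ATPases include polyamine and lysosomal transporters. *Atp13a3* had 8.46 CPM in input RNA and 28.8 CPM in the FMRP RIP (ratio 3.41, 2.97 to 3.92). *Atp13a2*, the lysosomal polyamine exporter mutated in a form of parkinsonism, had 8.62 and 20.5 CPM (ratio 2.37, 2.06 to 2.74). With 1 CPM added, *Atp13a4* had the lowest log2 ratio of the 114 genes, 0.46, from 26 reads in input RNA and 56 in the FMRP RIP. Its plain ratio was 1.82 (1.12 to 3.02), above those of *Tmc1* (1.61) and *Piezo1* (1.62). Genes of the multi-subunit proton pumps were counted beside the share of 21.3% over all annotated protein-coding genes, and their spans were not compared. Of 24 genes of the V-ATPase, which acidifies lysosomes and the acrosome, *Atp6v1a* alone was listed (48.9 and 83.5 CPM, ratio 1.71, 1.61 to 1.82), and of 17 annotated mitochondrial ATP synthase genes none was.

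ABC genes were set in 2 groups, the membrane transporters (subfamilies A to D and G) and the soluble proteins of subfamilies E and F, which have ATPase domains but no membrane span. Of the latter, *Abcf1*, a factor of translation initiation, had 18.2 CPM in input RNA and 142 CPM in the FMRP RIP, with a ratio of 7.79 (7.14 to 8.51) and the highest log2 ratio of all ABC genes at 2.89. *Abcf2* had 116 and 405 CPM (ratio 3.50, 3.37 to 3.63), and *Abce1*, which splits ribosomes after termination, had 32.2 and 73.7 CPM (ratio 2.29, 2.13 to 2.46). *Abcf3* was not listed. The log2 ratios of these 3 genes were all above 1, with a median of 1.8.

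Of the membrane transporters, 7 of the 16 subfamily A genes were listed, 2 of 10 in B, 2 of 10 in C, none of 4 in D and 1 of 6 in G. Their median log2 ratio was 1.18 (0.753 with 5 CPM added), and 8 of 12 had a log2 ratio above 1. *Abca16* had the highest, with 21.9 CPM in the input, 107 CPM in the FMRP RIP and a ratio of 4.87 (4.49 to 5.29). It stands in a cluster on chromosome 7 (GRCm38 120203961 to 120544813, plus strand) with *Abca14* and *Abca15*, whose genes end 3.32 and 1.96 kb before the next begins. *Abca14* had 51.7 and 142 CPM (ratio 2.74, 2.59 to 2.90), and *Abca15* had 32.5 and 54.9 CPM (ratio 1.69, 1.57 to 1.82). The 3 neighbours thus had intervals that did not overlap, with *Abca15* lowest. *Abca17*, a lipid transporter known from testis, had a ratio of 2.25 (2.12 to 2.40). *Abca9* (ratio 1.73) and *Abca2* (ratio 2.15), a transporter of lysosomes, were lower in the order of ratios, and *Abca12*, the lipid carrier of the skin, had 23 input reads and a ratio of 5.25 (3.37 to 8.55).

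By reads, *Abcc12* was the largest of the transporters, with 95.4 CPM in input RNA and 366 CPM in the FMRP RIP (ratio 3.84, 3.69 to 4.0). *Abcb9*, a peptide transporter of lysosomes, had 18.6 and 62.5 CPM (ratio 3.37, 3.07 to 3.70). The mitochondrial *Abcb10* (ratio 1.88), the multidrug exporter *Abcc10* (ratio 2.96) and the sterol carrier *Abcg8* (ratio 2.13) had lower ratios, each from under 10 CPM in both libraries. *Abcc10* overlaps *Dlk2* and *Abcg8* overlaps *Abcg5* in the annotation. The widely studied drug exporters *Abcb1a*, *Abcc1* and *Abcg2* and the cholesterol exporter *Abca1* were not listed.

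Among voltage-gated calcium channels, 11 of 26 genes were listed and 8 had a log2 ratio above 1, with a median of 1.25 (0.704 with 5 CPM added). *Cacna1h*, which forms a T-type channel that opens at low voltage, stood far above the others, with 60.7 CPM in the input, 676 CPM in the FMRP RIP and a ratio of 11.1 (10.6 to 11.7). With a log2 ratio of 3.46 it ranked 153 among all listed genes. Its gene, ENSMUSG00000024112, lies on chromosome 17 from 25374285 to 25433783 (minus strand), where it overlaps *Tpsg1*. The other T-type genes *Cacna1i* (2.01 and 12.1 CPM, ratio 6.02, 4.61 to 7.99) and *Cacna1g* (1.07 and 2.77 CPM, ratio 2.59, 1.73 to 3.96) were also listed. The T-type intervals of *Cacna1h*, *Cacna1i* and *Cacna1g* did not overlap.

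L-type channels carry the slow calcium current of muscle and endocrine cells. *Cacna1c* (ratio 3.75, 2.69 to 5.32), *Cacna1d* (ratio 2.20, 1.85 to 2.62) and *Cacna1s* (ratio 2.17, 1.84 to 2.55) were listed at ratios below that of *Cacna1h*. *Cacna1c* overlaps *Dcp1b*, and *Cacna1d* overlaps *Chdh* and *Dcp1a*, each of them a listed gene. Of the auxiliary subunits, which traffic and tune the pore, 2 of 4 alpha-2/delta genes, 3 of 4 beta genes and none of 8 gamma genes were listed. *Cacnb1* had 24.9 and 60.6 CPM (ratio 2.44, 2.25 to 2.65) and overlaps *Rpl19*. *Cacnb4* (ratio 5.18, from 16 input reads), *Cacna2d2* (ratio 3.53), *Cacna2d1* (ratio 1.88) and *Cacnb3* (ratio 1.95, 1.25 to 3.13) all lay under 2 CPM in the input.

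Voltage-gated sodium channels, best known from nerve and muscle, were listed broadly and at low read numbers. Of 10 alpha subunit genes 9 were listed, of 4 beta subunit genes none, and the leak channel *Nalcn* was not. All 9 had under 3 CPM in input RNA and 5 were under 1 CPM. *Scn2a* had the most reads in the FMRP RIP, with 2.10 CPM in the input, 10.1 CPM in the FMRP RIP and a ratio of 4.80 (3.67 to 6.33). A further channel of neurons, *Scn8a*, had 2.30 and 5.37 CPM (ratio 2.33, 1.77 to 3.11). *Scn4a*, the channel of skeletal muscle, had 15 input reads and a ratio of 6.25 (3.63 to 11.5), and *Scn11a* had 8 input reads and a ratio of 7.08 (3.39 to 17.1). *Scn3a*, *Scn1a*, *Scn7a* and *Scn10a* had ratios between 1.88 and 3.89 on 9 to 35 input reads. These wide intervals overlapped for most pairs, so few of the low genes can be put in order. The family's median log2 ratio was 0.95 with 1 CPM added, 0.378 with 5 CPM and 1.56 with none.

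Of 94 potassium channel genes, 22 were listed, and their shares differed by class. Voltage-gated subunits had 13 of 40 genes listed, calcium- and sodium-activated channels 4 of 8, inward rectifiers 2 of 15 and auxiliary and interacting proteins 3 of 17. None of 14 two-pore-domain genes, which carry background potassium current, was listed. The median log2 ratio was 1.03 with 1 CPM added, 0.587 with 5 CPM and 1.66 with none, and 11 of 22 had a log2 ratio above 1. *Kcnu1*, the sperm channel also called SLO3 that sets the membrane potential of capacitating sperm, had 45.6 CPM in input RNA and 169 CPM in the FMRP RIP. Its ratio was 3.71 (3.50 to 3.93) and its log2 ratio 1.87. The auxiliary subunit of this channel, *Lrrc52*, lies outside the symbol pattern and had 6.48 CPM in the input, 23.4 CPM in the FMRP RIP and a ratio of 3.62 (3.10 to 4.24), an interval that contains the ratio of *Kcnu1*.

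*Kcnq3* had the highest log2 ratio of the potassium channels, 1.94, from 1.63 and 9.07 CPM (ratio 5.55, 4.15 to 7.69). *Kcnb2*, a delayed rectifier, had a ratio of 2.25 (1.52 to 3.40). *Kcnd3*, of the fast A-type current, had 2.63 and 12.2 CPM (ratio 4.65, 3.66 to 5.97). Its class of channels binds KChIP proteins, of which *Kcnip3* (0.746 CPM in the input, ratio 4.19) and *Kcnip4* (1.10 CPM, ratio 3.41) were listed. Modifier subunits, which form no channel on their own, were present as *Kcng1* (5.48 and 18.2 CPM, ratio 3.32), *Kcng4* (14.4 and 27.6 CPM, ratio 1.92) and *Kcnv2* (ratio 4.95, 2.20 to 13.1), with 7 input reads.

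The G protein-gated inward rectifiers *Kcnj9* and *Kcnj6* had 23.2 and 8.78 CPM in input RNA and ratios of 3.0 (2.76 to 3.27) and 2.56 (2.23 to 2.94). *Kcnma1*, the large-conductance calcium-activated channel, had 2.92 and 10.7 CPM (ratio 3.68, 2.92 to 4.68). Its small-conductance relative *Kcnn3* had a log2 ratio of 0.47 with 1 CPM added and a plain ratio of 1.77 (1.14 to 2.81) on 31 input reads, and the sodium-activated *Kcnt1* had 17 input reads and a ratio of 2.98 (1.72 to 5.45). *Kcnh2*, which carries the rapid repolarizing current of the heart, had 8.49 and 16.6 CPM (ratio 1.95, 1.69 to 2.27), close to *Kcnh8* (ratio 1.83) and *Kcnc2* (ratio 1.8). *Kcnab2*, an auxiliary beta subunit, had 10.4 and 19.2 CPM (ratio 1.85) and overlaps the listed *Nphp4*. *Kcnq1*, with 16 input reads, had a ratio of 3.38 (1.93 to 6.26), and *Kcna7*, with 4, had one of 13.3 (4.95 to 50.4). Such intervals are too wide to place these genes among the others.

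**Figure D5:**
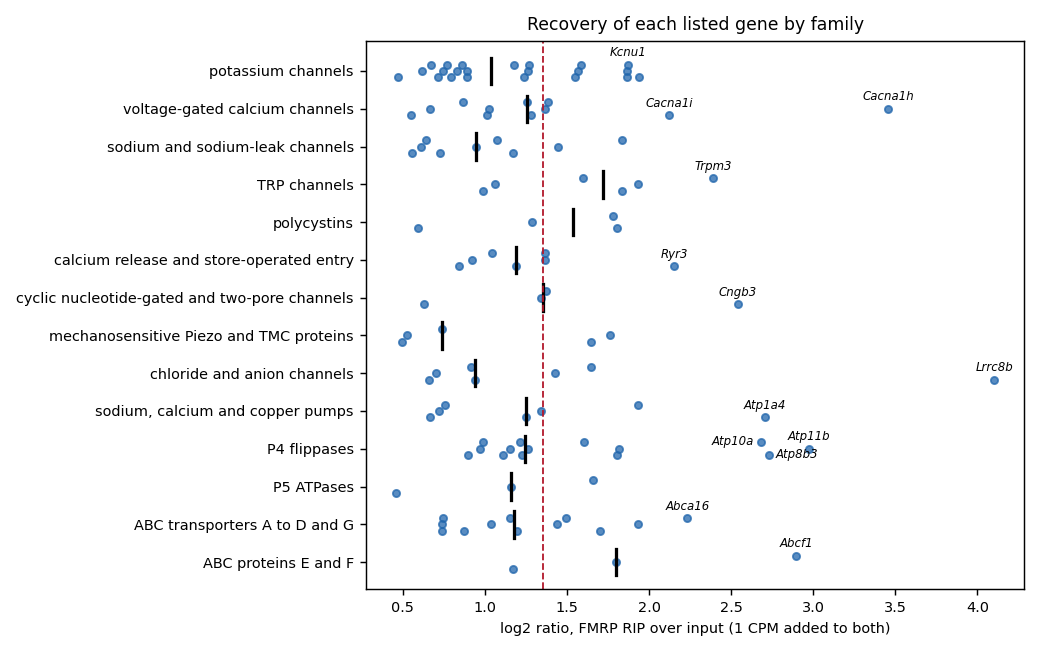
Log2 ratio of FMRP RIP over input (horizontal axis, 1 CPM added to both) for each listed gene (points, spread vertically within a family for legibility), with the median of each family as a black bar and the median of all listed genes (1.35) as a dashed line. The highest points, *Lrrc8b* (4.10) and *Cacna1h* (3.46), stand apart from the rest of their families, while the potassium and sodium channels all lie under 2.

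Intracellular calcium channels release calcium from the endoplasmic reticulum, and STIM and ORAI proteins refill it from outside. Of these genes 7 of 11 were listed, and 5 had a log2 ratio above 1 with a median of 1.19. *Ryr3* had the highest ratio, 5.71 (4.54 to 7.27), from 2.72 and 15.6 CPM, whereas *Ryr1* had 2.11 and 4.57 CPM and a ratio of 2.17 (1.62 to 2.94). The intervals of these ryanodine receptors did not overlap. *Itpr1* and *Itpr3*, receptors for inositol trisphosphate, had ratios of 2.35 (2.13 to 2.59) and 1.99 (1.73 to 2.29), and *Itpr2* and *Ryr2* were not listed. *Stim1*, the calcium sensor of the store, had 79.3 CPM in input RNA and 164 CPM in the FMRP RIP (ratio 2.07, 1.98 to 2.17). *Stim2* had far fewer reads and a ratio of 3.32 (2.52 to 4.41), and the pore gene *Orai2* one of 2.84 (2.40 to 3.37). Of 26 further genes of calcium stores and mitochondrial calcium, 5 were listed and 2 had a log2 ratio above 1, namely *Clgn*, a chaperone needed for sperm-egg binding (92.8 and 209 CPM, log2 ratio 1.17), and *Letm1* (14.6 and 52.5 CPM, log2 ratio 1.78). *Jph3*, *Jph4* and *Micu3* had log2 ratios of 0.65 to 0.88. The 5 of 26 genes stand beside a share of 21.3% over all annotated protein-coding genes. A log2 ratio above 1 was found in 70.1% of all listed genes.

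TRP channels are cation channels gated by ligands, lipids or temperature. The TRPM class had 5 of 8 genes listed, against 1 of 9 genes with a TRPC symbol and none of 6 TRPV genes. The 9 include *Trpc4ap* and *Trpc5os*, which are not channel subunits. The share over all annotated protein-coding genes was 21.3%. Annotated median spans were 83.4 kb for TRPM, 69.9 kb for TRPC and 28.4 kb for TRPV genes, and the part of span in these shares was not tested. All 5 TRPM genes had a log2 ratio above 1, beside 70.1% of all listed genes. *Trpm3* led by ratio, 9.61 (6.61 to 14.5), with 30 input reads and 9.34 CPM in the FMRP RIP. The channel kinases *Trpm7* and *Trpm6*, which take up magnesium, had input levels of 6.13 and 11.9 CPM, with 26.2 and 45.2 CPM in the FMRP RIP and overlapping intervals (3.65 to 5.02 and 3.38 to 4.25). *Trpm4*, a calcium-activated monovalent cation channel, had 15.5 and 49.0 CPM (ratio 3.16, 2.85 to 3.50), and *Trpm1* had a ratio of 2.88 on 42 input reads. *Trpc1* had 3.53 and 7.98 CPM (ratio 2.26, 1.8 to 2.84).

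Polycystins are large membrane proteins of cilia. *Pkd1* had 21.9 and 79.1 CPM (ratio 3.61, 3.32 to 3.93) and *Pkd1l3* had 30.1 and 106 CPM (ratio 3.52, 3.27 to 3.78). *Pkd2l2*, a channel-type member, had 11.5 and 29.6 CPM (ratio 2.56, 2.27 to 2.90), while *Pkd2*, the partner of *Pkd1* in kidney, was not listed. All 3 overlap another gene in the annotation, *Tsc2*, *Ist1* and *Fam13b* in that order. *Pkd1l2*, with no such overlap, had 53 input reads and a log2 ratio of 0.59.

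Some genes of sensory cells were listed from few reads. *Cngb3*, a subunit of the cone photoreceptor channel, had 1.69 CPM in the input, 14.6 CPM in the FMRP RIP and a ratio of 8.68 (6.52 to 11.8), and *Cnga4*, of the olfactory channel, had 7 input reads and a ratio of 9.30 (4.30 to 23.9). *Hcn2*, a pacemaker channel, had 11 input reads and a ratio of 3.07 (1.55 to 6.64). The endolysosomal *Tpcn1* had more, with 11.3 and 30.9 CPM (ratio 2.73, 2.42 to 3.08), and overlaps *Iqcd*. Of the TMC proteins, related to the transduction channel of hair cells, *Tmc7* (76.4 and 241 CPM, ratio 3.15, 3.01 to 3.30) and *Tmc5* (41.9 and 144 CPM, ratio 3.45, 3.24 to 3.66) were well measured. They lie 12.6 kb apart on chromosome 7. The hair cell gene *Tmc1* itself had 2.59 and 4.16 CPM (ratio 1.61, 1.22 to 2.13), *Tmc3* had a ratio of 2.70 on 20 input reads, and the pressure-gated *Piezo1* had 1.94 and 3.15 CPM with a ratio of 1.62 (1.18 to 2.25) and overlaps *Ctu2* and *Gm20388*. The intervals of *Tmc7* and *Tmc5* lay wholly above those of *Tmc1* and *Piezo1*.

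The gene with the highest log2 ratio of all 114 belongs to the anion channels. *Lrrc8b* encodes a subunit of the volume-regulated anion channel, through which swollen cells lose chloride and small organic solutes. It had 84.3 CPM in input RNA and 1465 CPM in the FMRP RIP, which rest on 2600 and 53490 reads. The ratio was 17.4 (16.7 to 18.1), the log2 ratio 4.10 and the rank among all listed genes 57. On chromosome 5 (GRCm38), *Lrrc8b* (ENSMUSG00000070639, 105415775 to 105490074), *Lrrc8c* (105519388 to 105613018) and *Lrrc8d* (105699969 to 105832436) follow each other on the plus strand. *Lrrc8c* had 6.45 and 22.3 CPM (ratio 3.46, 2.96 to 4.06), and *Lrrc8d* had 4.89 and 10.1 CPM (ratio 2.06, 1.70 to 2.51). The intervals of these neighbours did not overlap, and *Lrrc8a*, the subunit that all such channels need, was not listed.

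The remaining anion channel genes had lower ratios. *Ano10*, a relative of the calcium-activated chloride channels, had 43.2 and 118 CPM (ratio 2.73, 2.57 to 2.90), and the lipid scramblase *Ano6* had 5.19 and 10.8 CPM (ratio 2.09, 1.74 to 2.53). *Ano5* had 4.64 and 7.89 CPM (ratio 1.70, 1.39 to 2.09). *Clcn3*, a chloride-proton exchanger of endosomes and the only one of 9 CLC genes listed, had 17.1 and 28.5 CPM (ratio 1.66, 1.5 to 1.85). The median log2 ratio of the 7 anion channel genes was 0.94. It was 1.65 over those with whole reads in both libraries, namely *Lrrc8b*, *Lrrc8c* and *Ano5*, and this is the value of *Lrrc8c*.

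Channels and the sodium pump are often built from a main subunit and auxiliary ones. In the classes that have both, a grouping made after the values were seen, 33 of 72 main subunit genes (45.8%) and 8 of 41 auxiliary subunit genes (19.5%) were listed. The share over all annotated protein-coding genes was 21.3%, near that of the auxiliary genes. Inward rectifier genes (2 of 15) and two-pore-domain potassium channel genes (none of 14) were outside this grouping. Main subunit genes also span more, with a median of 61.5 kb against 24.1 kb, and the part of span in the difference of shares was not tested. Once listed, the medians of the log2 ratio were 1.01 and 1.21. The main subunit genes include modifier subunits of voltage-gated potassium channels, such as *Kcng1*, *Kcng4* and *Kcnv2*, which form no channel on their own.

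Sperm ion channels and partners outside the symbol pattern were counted as a separate list. It holds the subunits of the sperm calcium channel CatSper and other genes, such as *Lrrc52*, *Slc9c1*, *Adcy10* and *Pkdrej*. Of the 24 annotated genes of this list 9 were listed, 8 of them with a log2 ratio above 1, and the median was 1.71. Over all annotated protein-coding genes 21.3% were listed. Of all listed genes 70.1% had a log2 ratio above 1, with a median of 1.35. *C2cd6*, a CatSper subunit, had 53.7 CPM in input RNA and 1200.0 CPM in the FMRP RIP, with a ratio of 22.4 (21.3 to 23.5). *Catsperg1* (35 and 287 CPM, ratio 8.19, 7.69 to 8.72) and the pore gene *Catsper1* (35.9 and 222 CPM, ratio 6.19, 5.82 to 6.60) followed. *Catsper4* and *Catsperb* had log2 ratios of 1.11 and 0.87. The sperm sodium-proton exchanger *Slc9c1* had a log2 ratio of 2.08, the sperm polycystin *Pkdrej* one of 1.40, and the soluble adenylyl cyclase *Adcy10*, which answers bicarbonate in sperm, one of 1.16.

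Other membrane proteins gave a further reference. The table held 43 solute carrier (*Slc*) genes, with 10.8% of the 389 annotated ones matched by symbol, and their median log2 ratio was 1.12. It held 23 *Tmem* genes (9.24% of 238 annotated ones matched), with a median of 1.32. Both shares lay under the 21.3% of all annotated protein-coding genes. Annotated median spans were 29.8 kb for *Slc* and 13.6 kb for *Tmem* genes, against 58.0 kb for channel, pump and ABC genes. The part of span in these shares was not tested. The log2 medians of 1.12 and 1.32 and the 1.20 of the channel, pump and ABC genes all lay under the 1.36 of the listed genes other than the 114. Across the 114 genes, which share both libraries, Spearman's rho between gene span and log2 ratio was -0.01, beside 0.16 across all 4788 listed genes. The annotation places 17 of the 114 genes over another protein-coding gene and 10 over another listed gene. Whether the counting used strand is not given in the sources used here, so reads of such pairs may not be told apart.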

How the data were processed

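RNA was sequenced from 1 input library and 1 FMRP RIP library of wild-type mouse testis. The authors deposited CPM values per gene, without counts, beside columns of their own edgeR comparison (log2 and linear fold changes, p-values, adjusted p-values and a stringency mark), which were not used. The submitters' processing notes name STAR and the build GRCm38 (mm10), and the counting tool is not given in the sources used here. The table holds only genes called higher in the FMRP RIP.

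The smallest steps of the CPM values gave the library totals of 30849871 and 36506932 reads. Whole reads, within 0.005 read, made up 78.4% of the input values above 0 and 78.8% of those of the FMRP RIP, so no count test was run. Log2 ratios used a pseudocount of 1 CPM, and intervals are exact Clopper-Pearson intervals at 95% from rounded reads. Since PCR copies are not separate molecules, the intervals and the floor of 3 reads cover counting error only. Scripts ran under Python 3.11.15 with scipy 1.17.1, pandas 2.3.3, numpy 2.4.6 and, for figures, matplotlib 3.10.9, and were tested on simulated data.

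Genes were taken by symbol, and all 114 matched the RefSeq annotation of GRCm38 by symbol and position. The genes, families and lists were chosen with earlier results of these data known. Each of the 114 genes could be named within its family, but 4 of them are not reported here by name and enter only the counts and medians. Intervals were set for the highest and lowest of each family with at least 100 reads over both libraries, for the 10 highest levels in the FMRP RIP and for a list of well-known channels and pumps, and are also given where neighbours or paralogs are compared. The alternatives were other pseudocounts, minimum levels and scaling both libraries to the reads of genes not listed. Another left out some of the genes that form no pore or transporter. Protein sequences, their motifs and transcript lengths were planned but not analysed here.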

Additional observations from a re-analysis of the deposited data

How the results depend on the processing

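No paired analysis was possible because input and FMRP RIP have 1 library each. The difference between the median log2 ratio of the 114 genes and that of all listed genes was -0.149 and stayed negative under every alternative run (-0.295 to -0.0641). The log2 ratios of the 114 genes could not change sign under these alternatives, because each gene was higher in the FMRP RIP by selection. A median was counted as moved beyond 0.288 on the log2 scale, the median half-width of the genes' counting intervals, and a count beyond 1.5 times. A pseudocount of 5 CPM gave 47 genes with a log2 ratio above 1, 71 at 1.5-fold or more and a median of 0.746, and moved family medians to 0.753 (ABC transporters A to D and G), 1.33 (TRP), 0.638 (anion channels), 0.79 (cyclic nucleotide-gated and two-pore), 0.271 (Piezo and TMC), 0.587 (potassium), 0.378 (sodium) and 0.704 (calcium). The other family medians fell by less, to 1.04 (P4 flippases and pumps), 0.902 (P5), 0.994 (calcium release), 1.35 (polycystins) and 1.76 (ABC E and F). Without a pseudocount the median was 1.54, and the family medians were 1.79 (P4 flippases), 2.37 (cyclic nucleotide-gated and two-pore), 1.44 (Piezo and TMC), 1.66 (potassium) and 1.56 (sodium). With the smaller pseudocount these were 1.73, 2.05, 1.28, 1.56 and 1.42 in the same order. Scaling both libraries to the reads of genes not listed, which multiplies each FMRP RIP value by 1.92, put all 114 genes above 1 with a median of 2.03, and gave family medians of 2.73 (ABC E and F), 2.06 (other ABC and P5), 2.17 (P4 flippases), 2.64 (TRP), 2.11 (calcium release), 1.82 (anion), 2.16 (cyclic nucleotide-gated and two-pore), 1.4 (Piezo and TMC), 2.46 (polycystins), 1.87 (potassium), 1.77 (sodium), 2.19 (pumps) and 2.02 (calcium). A minimum of 1 CPM in both libraries moved the P4 flippases to 1.60, the cyclic nucleotide-gated and two-pore channels to 1.96 and the Piezo and TMC proteins to 1.08. Among alternatives chosen after seeing the data, leaving out genes that overlap another annotated gene gave 2.35 for ABC E and F, 1.19 for Piezo and TMC and 0.591 for the polycystins, of which 1 gene was left. Keeping genes with whole reads in both libraries gave 2.35 for ABC E and F, 1.65 for the anion channels, 1.19 for the polycystins and 0.738 for the pumps. Each of these rests on only part of its family. A minimum of 10 input reads kept 108 genes, of which 68 had a log2 ratio above 1 and 102 were at 1.5-fold or more. Leaving out the ABC E and F genes and the auxiliary and interacting proteins of potassium channels also kept 108, with 67 and 102. It gave a potassium median of 0.893 and left no ABC E and F genes. The STIM genes and the auxiliary subunits of calcium channels, which form no pore either, were kept in. Other medians moved by less than 0.288 under both alternatives. Depth limits the 20 genes with fewer than 30 input reads, and the cause of the moves was not tested.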

Other observations

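Listed channel, pump and ABC genes also stood near each other outside the clusters described above. *Scn10a* and *Scn11a* lie 34.4 kb apart on chromosome 9 and had log2 ratios of 0.56 and 1.17. On chromosome 2, *Scn3a* and *Scn2a* lie 53.1 kb apart with log2 ratios of 0.73 and 1.84, and *Scn1a* and *Scn7a* lie 233 kb apart with 0.64 and 0.61. *Atp1a4* and *Kcnj9* lie 62.1 kb apart on chromosome 1, with log2 ratios of 2.71 and 1.55. These paralogs and neighbours share both libraries, and no test of their likeness was made.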
